A study of Mus musculus with 4 samples.

Results

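The transferrin receptor gene Tfrc and 9 further genes of cellular iron control were followed in mouse tumours treated with an antibody against CD71, the protein that Tfrc encodes. The genes were chosen by name for their textbook roles, with earlier results of these data known: Tfrc, Slc11a2, Slc40a1, Fth1, Ftl1, Aco1, Ireb2, Fbxl5, Hfe and Steap3. They were 10 of the 17574 genes to which a symbol could be given, and their transcripts were 26 of the 59881 listed. All 10 were found, and none had a copy of its transcripts at another locus.

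Tumours were grown from SCC7, a mouse squamous carcinoma line used as a transplanted model of head and neck squamous cell carcinoma (HNSCC), injected under the skin of the back in C3H/HeN mice labelled WT. In the anti-CD71 group (2 libraries), mice received the antibody on day 6 and day 9. In the control group (2 libraries) the tumours had the same cells, host strain and day of harvest, and the labels do not say what the mice were given. Tumours were harvested on day 10, and bulk RNA sequencing measured tumour cells together with the host cells among them. The labels give neither the age of the mice nor whether each library came from a separate animal, so p-values measure only the spread between these libraries.

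Cells take up iron mostly as transferrin, which binds the transferrin receptor at the surface and is carried into endosomes, where the iron is released, reduced and pumped into the cytosol. Iron that is not used is stored in ferritin, a shell of heavy and light chains, or leaves the cell through ferroportin. When iron is scarce, iron regulatory proteins bind hairpins in messenger RNA called iron-responsive elements. Hairpins in the 3′ untranslated region of the receptor messenger then slow its decay, whereas hairpins in the 5′ untranslated region of ferritin and ferroportin messengers block translation, so control of ferritin need not appear in its RNA level.

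The files gave TPM, a transcript abundance scaled for transcript length and to a fixed total per library. TPM keep no depth, so the reads behind each value are unknown and no counting interval can be given. Anti-CD71 replicate 2 and both controls listed 59881 transcripts each. For anti-CD71 replicate 1 only 13586 transcripts were at hand, because its table broke off partway, and the rest were treated as missing and not as 0. Of the 26 transcripts of the iron genes, 7 were listed in all 4 libraries: 1 of Tfrc, 3 of Slc11a2, 1 of Fbxl5 and 2 of Hfe. The genes were therefore compared as whole genes between anti-CD71 replicate 2 and the 2 controls, with limma on log2(TPM + 1) and Benjamini-Hochberg adjustment over all 11982 genes tested. Their transcripts were compared over all 4 libraries where they were listed there. A fold change on the log2(TPM + 1) scale understates the change of low genes. With a single treated library the fit takes its spread from the controls, which assumes that the treated tumours vary like them. Over 1563 genes the SD of the log2 difference between replicates was 0.294 for anti-CD71 and 0.222 for control.

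The iron-responsive elements are printed here because they tie Tfrc, Slc11a2, Slc40a1, Fth1 and Ftl1 to one regulatory system and separate transcripts of Slc11a2. Each is read 5′ to 3′ on the transcript strand, from GENCODE vM21 transcripts of build GRCm38, with the loop in capitals. The search, on the transcript strand, asked for the loop CAGTGN with the 5 bases before it pairing with the 5 bases after it. Up to 1 mismatch was allowed in that stem, and the base directly before the stem had to be a C. The main Tfrc transcript, NM_011638, held 4 matches, all in its 3′ untranslated region on the plus strand of chromosome 16, at chr16:32631219-32631248, chr16:32631598-32631627, chr16:32631663-32631692 and chr16:32631710-32631739:
Tfrc element 1: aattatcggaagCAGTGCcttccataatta
Tfrc element 2: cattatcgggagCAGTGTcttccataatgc
Tfrc element 3: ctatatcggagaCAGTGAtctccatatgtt
Tfrc element 4: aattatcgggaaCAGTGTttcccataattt
The 4 Tfrc elements shared between 18 and 25 of their 30 bases with one another.

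Single matches lay in the 3′ untranslated region of Slc11a2 NM_001146161 (chr15:100395152-100395181, minus strand) and in the 5′ untranslated regions of Slc40a1 NM_016917 (chr1:45925464-45925493, minus strand), Fth1 NM_010239 (chr19:9982732-9982761, plus strand) and Ftl1 NM_010240 (chr7:45459778-45459807, minus strand):
Slc11a2: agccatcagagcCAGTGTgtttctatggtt
Slc40a1: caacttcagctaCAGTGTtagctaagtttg
Fth1: ttcctgcttcaaCAGTGCttgaacggaacc
Ftl1: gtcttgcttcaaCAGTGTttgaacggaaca
The elements of both ferritin chains were identical at 26 of 30 bases. The Slc11a2 match was the only one of these 8 with a mismatched stem pair. The motif is not rare in its looser form: of 21877 protein-coding genes, 1.34% held a match without a mismatch on the transcript strand and 10.7% held one with up to 1 mismatch. The same search on the opposite strand gave 1.11% and 9.78%. No match was found in Slc11a2 NM_008732 or in the transcripts examined for Aco1, Ireb2, Fbxl5, Hfe and Steap3, which says only that these letters were not there.

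**Figure D1:**
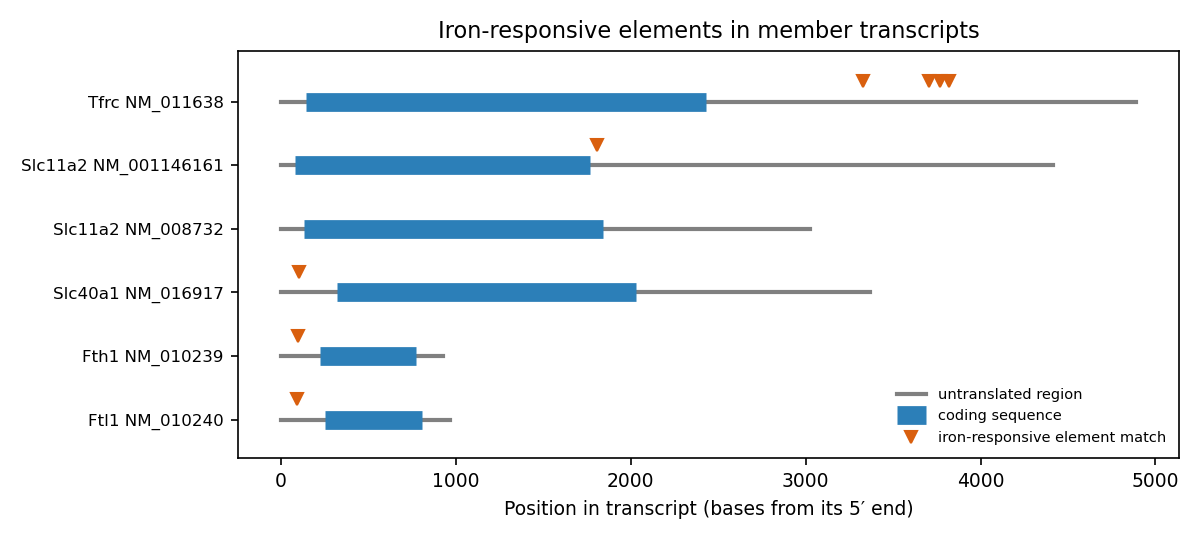
Position in the transcript, in bases from the 5′ end (x axis), of the iron-responsive element matches (triangles), the coding sequence (blue bars) and the untranslated regions (grey lines) in 6 transcripts of 5 genes. The 4 Tfrc matches follow the coding sequence, the Slc40a1, Fth1 and Ftl1 matches precede it, and Slc11a2 NM_008732 has none.

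In these tumours the ferritin chains were by far the most abundant iron transcripts, and the exporter was the scarcest. Averaged over the 3 complete libraries, Ftl1, the ferritin light chain, stood at 3116 TPM and Fth1, the heavy chain, at 2531 TPM. They ranked at place 47 and place 63 among all genes. The levels of the light chain lay above those of the heavy chain in all 3 libraries, without overlap of their ranges. Fth1 was 50.87 times the next gene, Fbxl5, which at 47.13 to 51.99 TPM lay above the range of Tfrc. A middle group of 5 genes, in the order Tfrc, Slc11a2, Steap3, Ireb2 and Aco1, ran between 24.52 and 44.11 TPM, and each neighbouring pair in that order overlapped. Hfe lay below this group at 13.71 to 21.33 TPM, and Slc40a1 was lowest at 0.61 to 1.95 TPM.

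**Figure D2:**
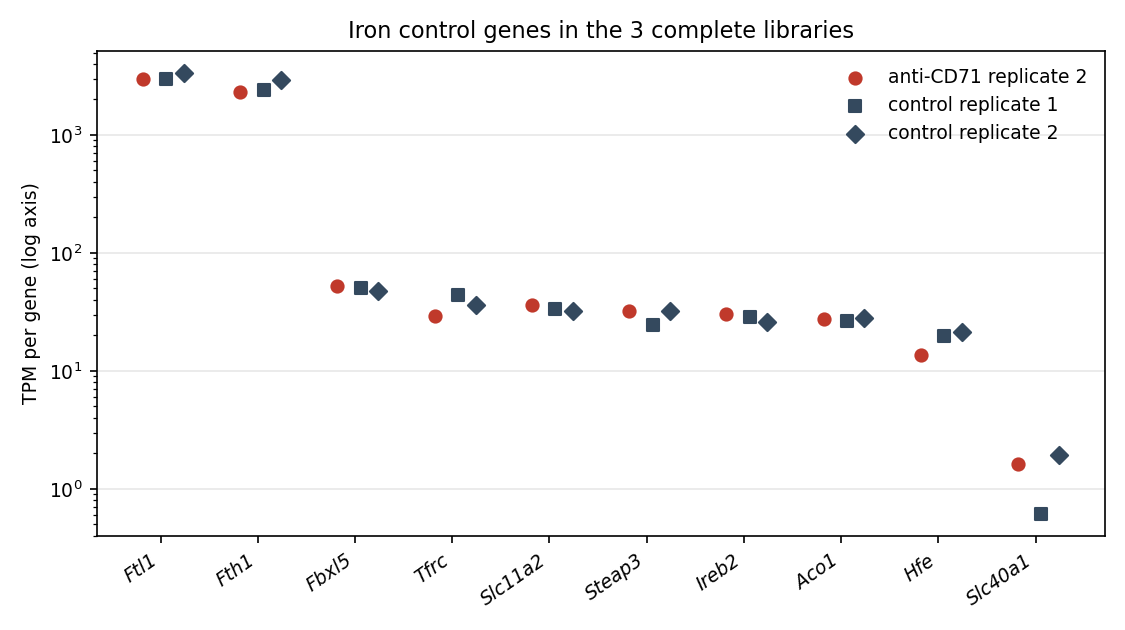
TPM per gene on a log axis for the 10 iron control genes, ordered by their mean, in anti-CD71 replicate 2 (circles) and control replicates 1 and 2 (squares and diamonds). Ferritin chains lie near the top of the scale, Slc40a1 at the bottom, and the point of anti-CD71 replicate 2 lies below both controls for Tfrc, Hfe, Fth1 and Ftl1.

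The comparison of anti-CD71 with control tumours asked what the antibody changed. None of the 10 iron genes passed the test at an adjusted p under 0.05, against 2.86% of all 11982 genes tested. The 2 genes farthest from the controls were the receptor itself and Hfe, both lower in the anti-CD71 tumour. At an unadjusted p under 0.05, without allowance for the number of genes, these were the 2 of 10 that passed, against 24.7% of all genes. Anti-CD71 replicate 2 lay below both controls for 4 genes (Tfrc, Hfe, Fth1, Ftl1), against 42.5% of all genes. It lay above both for another 4 (Slc11a2, Ireb2, Fbxl5, Steap3), against 39.5% of all genes. The median log2 difference of the 10 genes was 0.05, and that of all genes tested was -0.01.

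Tfrc (chr16:32608896-32632794, plus strand, build GRCm38.p6), the receptor that the antibody binds, had 29.0 TPM in anti-CD71 replicate 2, against 44.11 and 36.16 TPM in controls. The treated tumour had the lowest value, but the controls differed from each other by more than the treated tumour differed from the nearer control. The log2 difference was -0.45 ± 0.14 (SE, 95% interval -0.80 to -0.09), with an adjusted p of 0.141 in limma, so the difference did not pass. It was -0.31 when control replicate 1 was left out and -0.59 when control replicate 2 was left out. In bulk tumour RNA, fewer cells that carry the receptor and less receptor RNA per cell cannot be told apart.

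Most Tfrc RNA was assigned to NM_011638, the transcript with the 4 elements printed above. It had 28.38 TPM in anti-CD71 replicate 2, against 40.99 and 33.52 TPM in controls, and it is not listed for anti-CD71 replicate 1. The log2 difference was -0.37 ± 0.15 (SE), with a limma adjusted p of 0.35 among 24714 transcripts, of which 0.0486% were called. Its values repeated the pattern of the gene, since it held between 92.7% and 97.86% of Tfrc TPM in each library.

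The other Tfrc transcript, NM_001357298, was listed in all 4 libraries. It had 0.66 and 0.62 TPM in anti-CD71 tumours, against 3.12 and 2.64 TPM in controls. Both treated values lay below both controls, and replicates within a group were close to each other. The treated values were under the filter of 1 TPM and the controls over it, so the transcript was tested only through the group in which it was high. The log2 difference over 4 libraries was -1.24 ± 0.22 (SE, 95% interval -1.83 to -0.65) with a limma adjusted p of 0.15, so it did not pass among 5894 transcripts tested. It made up 2.14% of Tfrc TPM in anti-CD71 replicate 2, against 7.07% and 7.3% in controls. Under the alternatives tried, its difference stayed between -2.01 and -1.15 and its adjusted p between 0.139 and 0.526. How reads common to both Tfrc transcripts were divided is not given in the sources used here, so a share this small is uncertain.

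RefSeq places 2 start sites of Tfrc 226 bases apart on the plus strand of chromosome 16, at positions 32608896 and 32609122. They are shown as the annotated starts from which Tfrc transcripts run, and the capitals mark the bases from the start site onward (chr16:32608881-32608910 and chr16:32609107-32609136, RefSeq, GRCm38.p6):
Tfrc upstream start: cctcggtaggtgtacGTGCGGAAGGAAGTG
Tfrc downstream start: ccagggcctgggtggTGCGGGCGGGGAGGC
The GENCODE transcript paired with NM_011638 has its first exon at chr16:32608920-32609036, near the upstream start and ending before the downstream one. No GENCODE transcript was paired with NM_001357298, so its start site was not established here.

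Hfe (chr13:23702034-23710854), the haemochromatosis protein that binds the transferrin receptor, had 13.71 TPM in anti-CD71 replicate 2, against 19.88 and 21.33 TPM in controls. The treated tumour lay well below both controls, which were close together. The log2 difference was -0.55 ± 0.10 (SE, 95% interval -0.82 to -0.29) with a limma adjusted p of 0.0629, just outside the threshold. Under other settings the adjusted p ran from 0.0533 to 0.207 and the difference from -0.60 to -0.51.

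A single Hfe transcript could be followed in both treated tumours. NM_010424 had 7.06 and 5.75 TPM in anti-CD71 tumours, against 10.48 and 11.17 TPM in controls. Both treated values were lower than both controls, and the log2 difference over 4 libraries was -0.68 ± 0.15 (SE, 95% interval -1.07 to -0.30), with a limma adjusted p of 0.174. The other main Hfe transcript, XM_006516556, had 6.81 TPM in anti-CD71 replicate 2, against 9.40 and 8.17 TPM in controls. Since Hfe and Tfrc were both lower, their ratio in the treated tumour, 0.473, lay between those of the controls, 0.451 and 0.590.

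Steap3 and Slc11a2 act in the endosome after transferrin has been taken in. Steap3 (chr1:120226414-120271081), the reductase that turns the released iron into its ferrous form, had 32.47 TPM in anti-CD71 replicate 2, against 24.52 and 32.14 TPM in controls. The treated value was next to that of control replicate 2, and the difference was smaller than the gap between the controls. The log2 difference was 0.20 ± 0.17 (SE), with an adjusted p of 0.501 in limma.

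Slc11a2 (chr15:100387898-100424209), which encodes the ferrous iron transporter DMT1, was the only one of the 10 whose shared transcripts carried enough of its TPM (94.79%) for a test as a gene over 4 libraries. Summed over those transcripts it had 35.77 and 33.06 TPM in anti-CD71 tumours, against 32.26 and 31.61 TPM in controls. The treated tumours lay slightly above the controls, and the log2 difference of 0.10 ± 0.08 (SE, 95% interval -0.09 to 0.30) had a limma adjusted p of 0.444, in a comparison where 4.29% of 1563 genes were called. Over all its transcripts the gene had 36.43 TPM in anti-CD71 replicate 2, against 33.64 and 32.19 TPM in controls.

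The 2 main Slc11a2 transcripts differ in the iron-responsive element, and their values differed in pattern. NM_001146161, with the element printed above, had 16.02 and 16.25 TPM in anti-CD71 tumours, against 13.05 and 11.65 TPM in controls. NM_008732, without it, had 19.75 and 16.81 TPM in anti-CD71 tumours, against 18.01 and 18.62 TPM in controls. The treated libraries lay above both controls for the transcript with the element and on either side of them for the other.

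For NM_001146161 the log2 difference was 0.36 ± 0.11 (SE, 95% interval 0.08 to 0.65) with a limma adjusted p of 0.24, and for NM_008732 it was -0.01 ± 0.12 (SE) with an adjusted p of 0.982. Neither passed, and the difference between the 2 transcripts was not tested as such. The transcript without the element made up 55.21% and 50.85% of both together in anti-CD71 tumours, against 57.98% and 61.51% in controls. These shares did not overlap between groups, with 2 libraries a group. How often other transcripts separated in this way is not reported here, so non-overlap alone carries little weight. A minor Slc11a2 transcript, NM_001356952, named after its values were seen, was listed at 0 in both anti-CD71 tumours, against 1.20 and 1.34 TPM in controls.

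**Figure D3:**
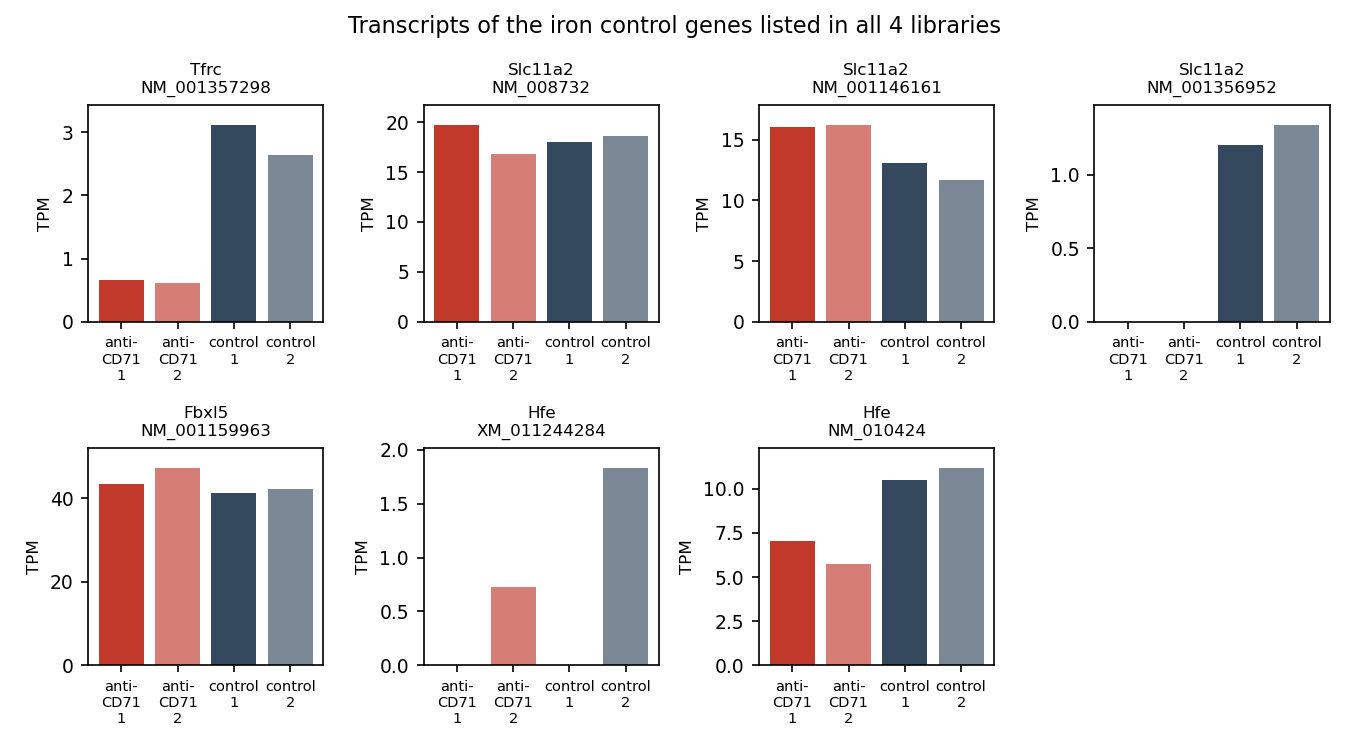
TPM (y axes, each from 0) of the 7 transcripts of the iron control genes listed in all 4 libraries, with anti-CD71 replicates 1 and 2 in red and control replicates 1 and 2 in blue and grey. Tfrc NM_001357298 and Hfe NM_010424 are lower in both anti-CD71 tumours than in both controls, and Slc11a2 NM_001146161 is higher in both.

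Of the 7 shared transcripts, 6 passed the filter on low values. None of the 6 passed the test over 4 libraries, in which 0.0679% of 5894 transcripts did. Both treated values lay above both controls for 2 of the 6 and below them for 3, and 1 overlapped. The share of all 5894 transcripts that separated in this way is not reported here. These counts therefore have no background to be set against. Tfrc NM_001357298 and Slc11a2 NM_001356952 passed the filter through the controls alone, so a lower value in the treated tumours was built into their being tested. The 7th, Hfe XM_011244284, had 0 and 0.73 TPM in anti-CD71 tumours, against 0 and 1.83 TPM in controls, and was not tested.

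Neither storage gene passed the test. Fth1 (chr19:9980600-9985111) had 2312 TPM in anti-CD71 replicate 2, against 2383 and 2898 TPM in controls. Ftl1 (chr7:45457944-45459886) had 2980 TPM in anti-CD71 replicate 2, against 3004 and 3365 TPM in controls. Both chains were lowest in the treated tumour, by less than the gap between the controls.

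The log2 difference was -0.18 ± 0.12 (SE, 95% interval -0.49 to 0.12) for Fth1 and -0.09 ± 0.08 (SE, 95% interval -0.29 to 0.11) for Ftl1, with limma adjusted p-values of 0.387 and 0.501. The ratio of heavy to light chain was 0.776 in anti-CD71 replicate 2, against 0.793 and 0.861 in controls. Ferritin RNA of both chains amounted to 182 times Tfrc RNA in anti-CD71 replicate 2, against 122 and 173 times in controls. The spread of that ratio between the controls was wider than the step from control replicate 2 to the treated tumour.

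Slc40a1 (chr1:45908070-45926532), which encodes ferroportin, the exporter of iron, had 1.62 TPM in anti-CD71 replicate 2, against 0.61 and 1.95 TPM in controls. The treated value lay between the controls, and the log2 difference of 0.27 ± 0.40 (SE, 95% interval -0.76 to 1.29, limma adjusted p = 0.715) covers changes in either direction. NM_016917, which holds the element printed above, was the transcript listed in anti-CD71 replicate 2 and control replicate 2. In control replicate 1 it was listed at 0 and XM_006496137 had the whole 0.61 TPM.

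The regulatory proteins that bind the elements, and the ligase that acts on one of them, did not pass the test either. Aco1 (chr4:40143265-40199009), iron regulatory protein 1, had 27.55 TPM in anti-CD71 replicate 2, against 26.72 and 28.31 TPM in controls. Ireb2 (chr9:54862658-54912534), iron regulatory protein 2, had 30.31 TPM in anti-CD71 replicate 2, against 28.58 and 26.16 TPM in controls. Aco1 lay between the controls, and Ireb2 lay above the nearer control by less than the gap between the controls.

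The log2 difference was 0.00 ± 0.09 (SE, 95% interval -0.24 to 0.24) for Aco1 and 0.14 ± 0.10 (SE, 95% interval -0.11 to 0.40) for Ireb2. Their limma adjusted p-values were 0.99 and 0.424. The ratio of Ireb2 to Aco1 was 1.1 in anti-CD71 replicate 2, against 1.07 and 0.924 in controls.

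Ireb2 was divided between 2 transcripts, named after their values were seen. XM_017313499 had 11.77 TPM in anti-CD71 replicate 2, against 6.37 and 3.16 TPM in controls, and NM_022655 had 18.18 TPM, against 21.52 and 22.69 TPM in controls. The share of XM_017313499 in both together was 39.3% in anti-CD71 replicate 2, against 22.84% and 12.22% in controls, and the log2 difference of 1.21 ± 0.40 (SE) had a limma adjusted p of 0.278. Neither transcript is listed for anti-CD71 replicate 1, so this split rests on a single treated library.

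Fbxl5 (chr5:43744618-43782149), the ubiquitin ligase subunit that senses iron and marks iron regulatory protein 2 for breakdown, had 51.99 TPM in anti-CD71 replicate 2, against 50.12 and 47.13 TPM in controls. Its main transcript, NM_001159963, had 43.37 and 47.21 TPM in anti-CD71 tumours, against 41.18 and 42.22 TPM in controls. Both treated tumours lay above both controls by a small margin. The transcript's log2 difference over 4 libraries was 0.12 ± 0.08 (SE), with a limma adjusted p of 0.525.

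The wider iron lists, 46 further genes of which 32 were tested, gave 0 genes called higher and 1 called lower in anti-CD71 replicate 2. This share is close to the 2.86% called among all genes, so the count says nothing particular to these lists. Their median log2 difference was -0.01, the same as that of all genes tested, with 16 above 0 and 16 below. Alas2, the erythroid enzyme that begins haem synthesis and whose messenger carries an iron-responsive element, was the gene called: it had 3.06 TPM in anti-CD71 replicate 2, against 9.84 and 10.21 TPM in controls (log2 difference -1.44 ± 0.12 SE, limma adjusted p = 0.0199). Its shared transcripts, 80.44% of its TPM, had 5.81 and 2.46 TPM in anti-CD71 tumours, against 7.72 and 8.41 TPM in controls, so anti-CD71 replicate 1 was nearer to the controls. The call was lost without the filter on low values (adjusted p = 0.125) and when 1 TPM in any single library was enough (adjusted p = 0.0813).

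By role, transferrin uptake and iron import had 10 of 14 genes tested with none called and a median of -0.01. Lrp1, the haemopexin receptor, had 151 TPM in anti-CD71 replicate 2, against 200 and 193 TPM in controls (limma adjusted p = 0.0671), while Snx3, a sorting nexin that recycles the transferrin receptor, and Slc39a14, an importer of non-transferrin iron, differed by 0.01 and -0.04 on the log2 scale. Trf, transferrin itself, named after its values were seen, had 9.25 TPM in anti-CD71 replicate 2, against 14.94 and 17.19 TPM in controls (limma adjusted p = 0.0557). Tfr2, the receptor's relative in liver and red cell precursors and likewise named afterwards, stood at 0.04 TPM in anti-CD71 replicate 2, against 0.02 TPM in each control. Steap1, also named afterwards, was higher, with 80.19 TPM in anti-CD71 replicate 2, against 59.09 and 50.08 TPM in controls. Its log2 difference was 0.55, and that of Steap4 was 0.68. The 10 tested genes of this list ran from -0.74 to 0.68, with 5 above 0 and 5 below.

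Iron export, hepcidin and serum iron had 4 of 11 genes tested, none called, with a median of -0.13. Its most abundant genes were Neo1 (-0.13 on the log2 scale), Cp, the ferroxidase ceruloplasmin (-0.14), and Mon1a (-0.05). Ferritin turnover and iron chaperones had 6 of 8 tested, none called, with a median of 0.09, and the iron chaperones Pcbp1 and Pcbp2 and the cluster-assembly gene Bola2 differed by 0.08, -0.06 and 0.10. The other genes with a known element had 5 of 6 tested and a median of -0.05, and Cdc42bpa, among the most abundant, differed by -0.05. The motif search found no match in the transcripts examined for Cdc42bpa, Epas1 and Slc6a3, which belong to this list.

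Mitochondrial iron import had all 7 genes tested, 6 of them above 0, none called, with a median of 0.13. Cisd1, an iron-sulphur protein of the outer mitochondrial membrane, could be followed in all 4 libraries and had 101.79 and 100.97 TPM in anti-CD71 tumours, against 80.83 and 81.45 TPM in controls. The groups were apart and the replicates close, but the log2 difference of 0.32 ± 0.06 (SE) missed the threshold with a limma adjusted p of 0.0554. Sfxn1 (54.80 and 65.03 TPM in anti-CD71 tumours, against 55.07 and 53.28 TPM in controls) and Slc25a37, mitoferrin 1 (0.02 on the log2 scale), overlapped with or lay close to the controls.

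**Figure D4:**
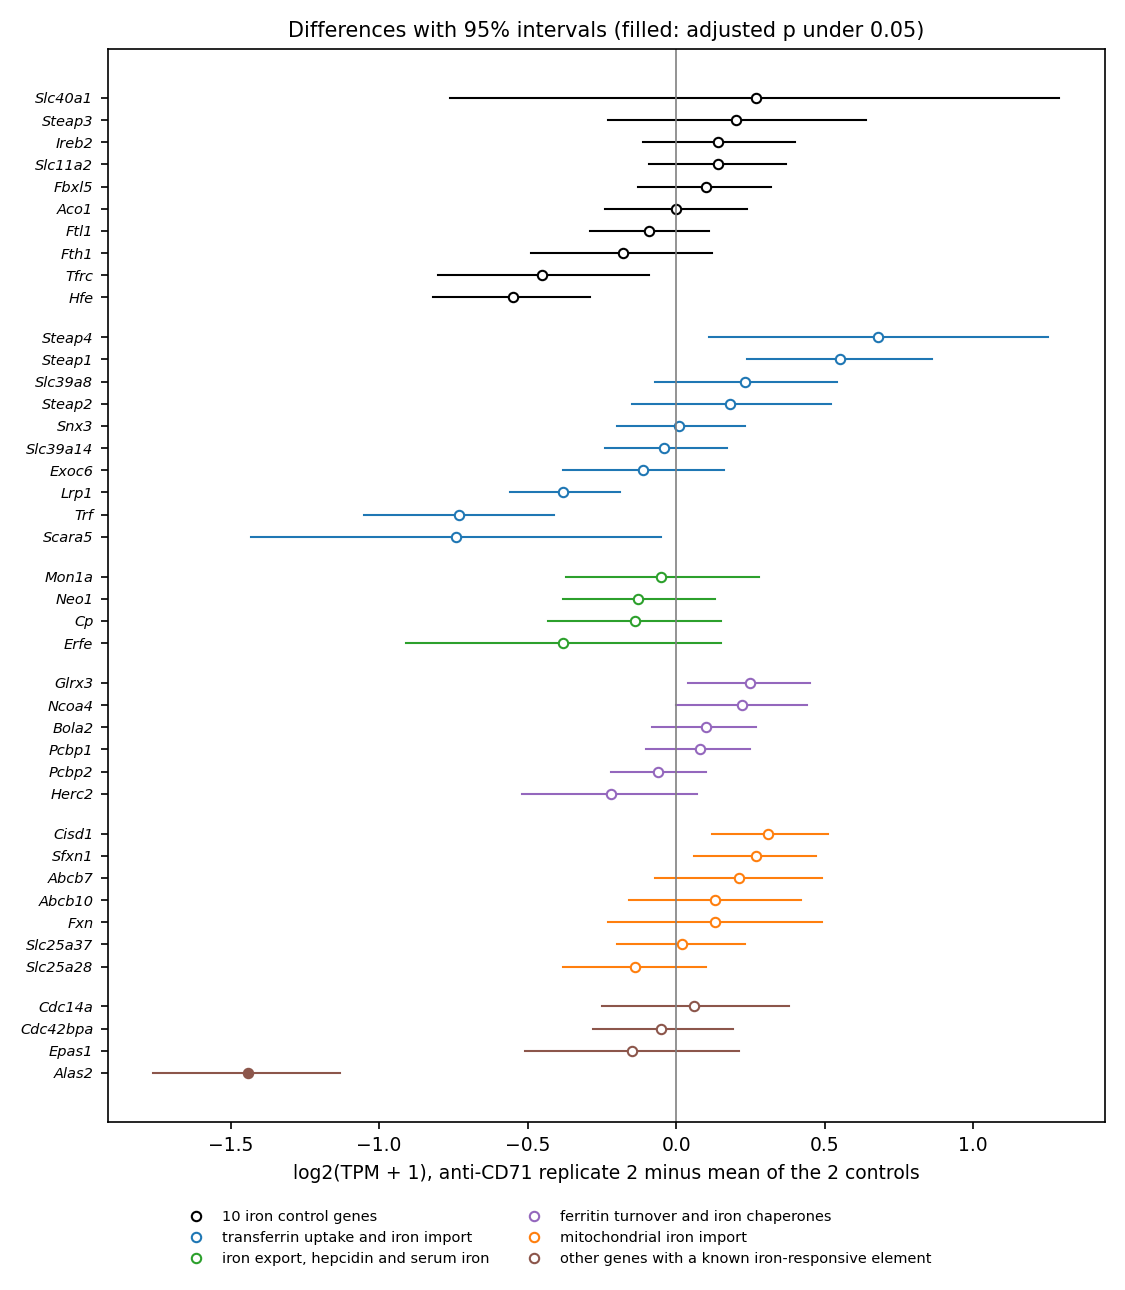
Difference in log2(TPM + 1), anti-CD71 replicate 2 minus the mean of the 2 controls (x axis), for the 10 iron control genes (black) and the tested genes of 5 wider iron lists (colours, 1 gene left out), with 95% intervals from limma. The only filled point, an adjusted p under 0.05, is Alas2 at -1.44, and among the 10 genes the intervals of Tfrc and Hfe lie below 0.

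Several cell type markers moved with the treated tumour, and their part in the values of Tfrc, Hfe and Alas2 was not tested. The 13 red cell and erythroid precursor markers found of 15 summed to 1007 TPM in anti-CD71 replicate 2, against 3376 and 3749 TPM in controls. Globin genes made up most of that sum, and of 8 markers under 1 TPM in every complete library, Klf1 and Gata1 mark nucleated precursors and Rhag was at 0. Markers of nucleated erythroid precursors were thus near the bottom of the scale in both groups. Of the 5 markers that could be tested, 4 were called lower: Alas2 and the globins Hba-a1, Hbb-b1 and Hbb-b2. Among all genes, 2.86% were called in either direction. The lists were chosen with earlier results of these data known, and the fit has a single treated library. The count is therefore not independent support for a shift in these cells.

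The 12 macrophage markers summed to 1799 TPM in anti-CD71 replicate 2, against 3477 and 4284 TPM in controls. Of these, 7 were called lower and 1 higher, against the same 2.86% of all genes, and the same limit on the choice of lists holds. Most of the macrophage sum came from C1qa, C1qb and C1qc in each complete library. Of the 12 markers, 10 had a log2 difference below 0 and 2 above. Csf1r, the macrophage growth factor receptor, had 69.38 and 66.83 TPM in anti-CD71 tumours, against 125.77 and 156.93 TPM in controls. Cd163 went the other way, with 10.95 TPM in anti-CD71 replicate 2, against 3.96 and 4.01 TPM in controls. Vsig4 was higher too, with 6.34 TPM in anti-CD71 replicate 2, against 2.34 and 5.05 TPM in controls. The 9 neutrophil markers found of 10 summed to 510 TPM in anti-CD71 replicate 2, against 17.0 and 11.3 TPM in controls. S100a8 (265.49 TPM) and S100a9 (212.99 TPM) made up most of that sum, and 3 markers were under 1 TPM in every complete library. Of the 3 that could be tested, S100a8 and S100a9 were called higher. Csf3r, at 10.58 TPM against 7.87 and 7.63 TPM in controls, was not called. The neutrophil sum on shared transcripts, present for 4 genes, was 144.3 and 186.2 TPM in anti-CD71 tumours, against 4.5 and 1.5 TPM in controls. S100a9 supplied most of it in both anti-CD71 tumours (142.39 and 183.5 TPM, against 3.67 and 0 TPM in controls). Whether either sum follows the number of neutrophils was not tested. The 10 T and NK cell markers summed to 50.9 TPM in anti-CD71 replicate 2, against 183.6 and 170.4 TPM in controls. The cytotoxic genes Gzmb and Prf1 (11.16 TPM, against 53.14 and 50.67 TPM in controls) supplied most of that sum. All 9 markers that could be tested had a log2 difference below 0. The T cell markers Cd3e and Cd4 differed little, by -0.12 and -0.15. On shared transcripts, present for 4 genes, the T and NK sum was 88.1 and 32.1 TPM in anti-CD71 tumours, against 116.3 and 101.8 TPM in controls. Gzmb supplied most of it (79.54 and 27.62 TPM, against 100.74 and 84.83 TPM), so the gap between treated tumours was mostly that of 1 gene. Cd3g (3.23 and 2.0 TPM, against 5.87 and 5.21 TPM) and Ncr1 (5.1 and 2.52 TPM, against 9.53 and 11.54 TPM) were likewise lower in both treated tumours. None of these 3 was called over 4 libraries, and Lck had only 2.71% of its TPM in shared transcripts. The 7 markers of proliferating cells, which often carry much receptor, summed to 1260 TPM in anti-CD71 replicate 2, against 1162 and 1050 TPM in controls. None of the 7 was called, and 5 had a log2 difference above 0 and 2 below. The sums on shared transcripts, present for 4 of the 7, overlapped: 348.3 and 382.8 TPM in anti-CD71 tumours, against 366.9 and 333.2 TPM in controls.

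The squamous identity of the line was looked at as well, and the markers did not settle it. The simple keratins Krt8 and Krt18 were abundant in every complete library, with Krt8 at 1256 TPM in anti-CD71 replicate 2, against 1132 and 1203 TPM in controls. The basal keratins that define squamous cells were nearly absent from controls: Krt5 had 31.4 TPM in anti-CD71 replicate 2 and was listed at 0 in both controls, and Krt14 had 36.37 TPM, against 0.09 and 0.10 TPM in controls. Trp63 (0.18 and 0.32 TPM), Epcam (0.1 and 0.2 TPM) and Cdh1 (2.15 and 1.79 TPM) were low in controls too, while Itga6 had 44.58 and 47.12 TPM. Markers of differentiated epidermis and hair summed to 73.5 TPM in anti-CD71 replicate 2, against 21.2 and 24.3 TPM in controls. On shared transcripts their sum was 20.4 and 46.4 TPM in anti-CD71 tumours, against 20.2 and 23.0 TPM in controls, so anti-CD71 replicate 1 lay at the level of the controls. Whether the source of the keratins in anti-CD71 replicate 2 also affected its values for other genes was not tested.

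**Figure D5:**
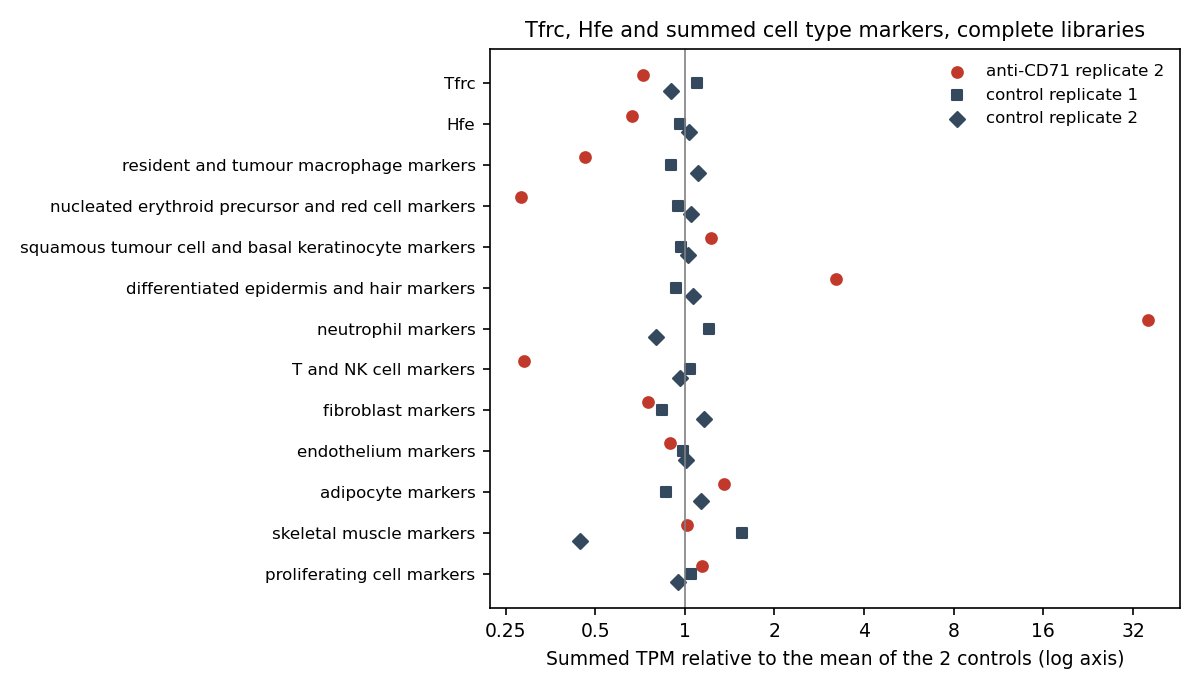
TPM of Tfrc and Hfe and summed TPM of 11 cell type marker lists in anti-CD71 replicate 2 (circles) and control replicates 1 and 2 (squares and diamonds), each divided by the mean of the 2 controls (log axis). The red cell, T and NK cell and macrophage sums lie farther below the controls than Tfrc and Hfe, and the neutrophil sum lies far above them.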

How the data were processed

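The authors deposited TPM per RefSeq transcript for 4 libraries. Per the labels' protocols, BGI extracted RNA with TRIZOL and prepared the libraries. The submitters' processing notes name the build GRCm38.p6. How reads were aligned and quantified is not given in the sources used. A RefSeq table of that build gave a symbol to 58425 of 59881 transcripts, and TPM were summed per gene (17574 genes).

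Values of log2(TPM + 1) were compared in R 4.3.3 by limma 3.58.1 with a trend in the variance prior, for genes or transcripts with at least 1 TPM in 2 libraries, and Benjamini-Hochberg adjustment over all tested. All 10 genes passed this filter. A gene was compared over 4 libraries where its transcripts listed in all 4 carried at least 90% of its TPM. Elsewhere anti-CD71 replicate 2 was set against both controls. The scripts were tested on simulated data. The members and lists were chosen with earlier results of these data known. Named were all 10 genes, all Tfrc transcripts, other transcripts listed in all 4 files with a mean of at least 1 TPM, and from the wider lists each gene called, or else the 3 most abundant. Alternatives covered the pseudocount, filter, scaling, variance trend, each library left out, second-locus copies, a replicate block and the 90% limit. Values of Hamp, Hamp2 and Ftmt were not analysed here, and those of 1 wider-list gene and 1 marker are not reported here.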

Additional observations from a re-analysis of the deposited data

How the results depend on the processing

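None of the 10 iron genes passed the test under any alternative run that gave a test, nor did any of the 9 of their transcripts for which alternatives were run. With 1 control left out, the log2 difference, with no test, ran from -0.17 to 0.70 for Slc40a1, 0.01 to 0.39 for Steap3, -0.33 to -0.04 for Fth1, -0.18 to -0.01 for Ftl1, -0.52 to -0.23 for Tfrc NM_011638 and 0.79 to 1.62 for Ireb2 XM_017313499. Slc11a2 NM_008732, at -0.01 over 4 libraries, was 0.03 after median scaling and ran from -0.12 to 0.10 with 1 library left out (0.10 without anti-CD71 replicate 2, 0.02 without control replicate 2). Counts over all features depended strongly on settings, and the cause was not tested. For genes, anti-CD71 replicate 2 against controls, 343 calls became 72 with a filter of 1 TPM in 1 library and 35 with no variance trend, while no filter gave 262 (256 higher, 6 lower). For genes over 4 libraries, 67 calls became 1 with no filter, 8 with a filter of 1 TPM in 1 library, 4 with no variance trend, 4 with any shared transcript, and 0 to 37 with 1 library left out (0 without control replicate 1). For transcripts over 4 libraries, 4 calls became 0 with a pseudocount of 0.1, 0 with no filter, and 0 to 1 with 1 library left out. For transcripts, anti-CD71 replicate 2 against controls, 12 calls became 2659 with no filter, 0 with a filter of 1 TPM in 1 library, 19 after median scaling and 0 with no variance trend.

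The labels tie no replicate number to a shared animal or day, and the deviations of same-numbered libraries correlated at -0.006 over 1563 genes. With the replicate block the calls over 4 libraries were 3 for genes and 0 for transcripts (896 at an unadjusted p under 0.05), and the block gave no call on an iron gene. With 2 libraries a group and no depth in TPM, low transcripts such as Tfrc NM_001357298 are limited in precision.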
